A study of Mus musculus with 3 samples.

Results

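The genes described here are 8 homeobox genes of the Meis, Pbx and Pknox families, namely Meis1, Meis2, Meis3, Pbx2, Pbx3, Pbx4, Pknox1 and Pknox2. They were chosen by family, and every distinct peak in a list of Isl1-bound regions that carried the symbol of 1 of them as its closest gene was kept. This gave 7 of the 14082 distinct peaks in the list. Meis1 held 3 of them, Pbx2, Pbx3, Pknox1 and Pknox2 held 1 each, and Meis2, Meis3 and Pbx4 held none.

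The list came from ChIP-Seq, which sequences the fragments of fixed chromatin that an antibody against a DNA-binding protein brings down. Chromatin was taken at day 5 from cardiac progenitor cells (CPCs) that were differentiated in culture from 1 mouse embryonic stem cell line, E14 Tg(Nkx2-5-EmGFP), which carries a fluorescent reporter of the early cardiac gene Nkx2-5. The 3 samples were 2 Isl1 pulldowns with a monoclonal antibody from the Developmental Studies Hybridoma Bank and 1 input, and no sample lacked Isl1 or received another treatment. Both pulldowns had been combined into the single list, with coordinates on mm9 and without scores or read numbers, so no replicate error, signal strength or sequencing depth can be given for any peak. A gene without a peak is therefore one that was the closest gene to no region passing the peak calling in both pulldowns. This is weaker than a gene that Isl1 did not bind, and a called peak near it can be assigned to a neighbour. A peak list holds no expression, so whether the cells were CPCs, and whether they transcribed the 8 genes, cannot be checked from it.

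Meis, Pbx and Pknox proteins belong to the TALE class of homeodomain proteins, whose homeodomain has a short insertion of amino acids in a loop between helices. They act together: Meis and Pknox proteins form dimers with Pbx proteins on DNA and help to keep Pbx in the nucleus, and Pbx proteins also bind DNA with Hox proteins, whose choice of sites they sharpen. In the embryonic heart, Meis and Pbx factors are known for roles in progenitors of the outflow tract, which come from the second heart field, where the LIM-homeodomain factor Isl1 is expressed.

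A window of 200 bp from 6 of the 7 peaks, those other than Pknox1, is shown to let the reader see what kind of DNA the peaks cover, and 1 window upstream of Meis2, which had no peak, is added for contrast. Windows lie as near to the peak midpoint as they could without touching an annotated UTR, except the Meis2 window, which is the first stretch upstream of the annotated gene. The sequence is mm9, given 5′ to 3′ on the strand of the gene, which is the plus strand for Pbx2 and the minus strand for the others. Capitals mark GGGCGG (the GC box bound by Sp factors) and TAAT (the core recognised by many homeodomains, that of Isl1 included) on either strand, so their reverse complements are in capitals too.
Meis1, promoter peak, chr11:18919782-18919981: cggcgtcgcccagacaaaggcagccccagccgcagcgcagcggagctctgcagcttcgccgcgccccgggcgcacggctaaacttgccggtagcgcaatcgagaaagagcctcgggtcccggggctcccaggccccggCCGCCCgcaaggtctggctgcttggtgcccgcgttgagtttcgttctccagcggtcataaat
Meis1, nearer distal peak, chr11:18772078-18772277: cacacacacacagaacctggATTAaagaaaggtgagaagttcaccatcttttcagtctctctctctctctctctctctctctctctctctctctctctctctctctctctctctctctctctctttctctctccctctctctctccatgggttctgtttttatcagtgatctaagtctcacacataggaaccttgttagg
Meis1, farther distal peak, chr11:18679598-18679797: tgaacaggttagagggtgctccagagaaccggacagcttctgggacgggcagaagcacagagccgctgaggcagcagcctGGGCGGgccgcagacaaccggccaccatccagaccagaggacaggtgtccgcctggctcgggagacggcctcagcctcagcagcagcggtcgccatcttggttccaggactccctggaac
Pknox2, chr9:36954394-36954593: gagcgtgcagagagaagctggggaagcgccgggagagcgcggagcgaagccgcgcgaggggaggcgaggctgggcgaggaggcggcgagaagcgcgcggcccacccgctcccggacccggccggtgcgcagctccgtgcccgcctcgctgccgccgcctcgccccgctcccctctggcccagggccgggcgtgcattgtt
Pbx2, chr17:34729499-34729698: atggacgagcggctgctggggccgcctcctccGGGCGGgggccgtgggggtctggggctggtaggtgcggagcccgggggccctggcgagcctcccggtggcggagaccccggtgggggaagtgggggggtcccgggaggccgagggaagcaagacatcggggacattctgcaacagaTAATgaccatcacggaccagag
Pbx3, chr2:34227559-34227758: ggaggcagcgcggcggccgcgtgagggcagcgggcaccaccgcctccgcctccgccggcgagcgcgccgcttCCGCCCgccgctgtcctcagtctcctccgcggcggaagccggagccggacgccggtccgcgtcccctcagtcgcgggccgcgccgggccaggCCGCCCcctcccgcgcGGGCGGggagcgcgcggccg
Meis2, no assigned peak, chr2:115891576-115891775: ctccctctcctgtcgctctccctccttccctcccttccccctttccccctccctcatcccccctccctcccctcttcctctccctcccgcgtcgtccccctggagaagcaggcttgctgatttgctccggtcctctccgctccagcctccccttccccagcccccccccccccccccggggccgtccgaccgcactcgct

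The windows differ visibly in composition. The Pbx3 window, at -202 to -3 bp of the transcription start site (TSS), is 84.5% G and C, holds 40 CpG dinucleotides and contains 3 GC boxes. The Pbx2 window begins at the start codon and lies wholly in coding sequence of the first coding exon. The nearer distal Meis1 window has no CpG and holds a long run of CT dinucleotides. The Meis2 window, with 11 CpG dinucleotides and no GC box, is rich in C and T.

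Of the 8 genes, 5 (62.5%) had an assigned peak, beside 37.5% of 21896 protein-coding genes. The same 5 of the 8 genes (62.5%) had a peak at a deposited distance of at most 1 kb from the TSS, beside 23.2% of protein-coding genes. Of the 7 peaks, 5 were that close, beside 38.5% of all distinct peaks, and the others, at Meis1, lay beyond 100 kb, beside 23.0% (51.1% lay beyond 10 kb). With 8 genes and 1 list this is a description of these genes, and it is read below against promoter composition and gene spacing, which differ greatly among them.

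Meis1 encodes a cofactor of Hox proteins with known roles in blood formation and in the cell cycle exit of cardiomyocytes. It was the one gene of the 8 with more than 1 peak, and 3.99% of protein-coding genes had at least 3, beside 26.9% with exactly 1 as at Pbx2, Pbx3, Pknox1 and Pknox2. Its promoter peak, chr11:18919564-18920201, was 637 bp wide. It lay in intergenic sequence at a deposited distance of -910 bp, with its midpoint 921 bp from the nearest annotated Meis1 TSS. Measured from the TSS of the Meis1 transcript with the longest coding sequence, the peak ran from -1484 to -847 bp, so it did not reach that TSS or the transcript. Every one of its 608 31-mers (the 31-base words of the peak) was unique in the genome.

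The other Meis1 peaks lay past the 3′ end of the gene, at deposited distances of 146794 and 239274 bp downstream of the TSS. The nearer, chr11:18772017-18772340, began 8093 bp past the gene and was 323 bp wide, narrower than nearly all peaks of the list (percentile 0.249, and 6.07% of peaks were under 500 bp). Its midpoint was in an intron of the long noncoding RNA gene 8430419K02Rik, 20 bp from the TSS of that gene, which is transcribed in the same direction as Meis1. Of its 294 31-mers, 125 (42.5%) occurred more than once in the genome, and the most frequent occurred 1129996 times on both strands. The farther peak, chr11:18679256-18680140, was 884 bp wide, intergenic and 100293 bp past the gene, and its nearest annotated TSS was that of a U1 small nuclear RNA gene at 22727 bp. Its sequence was repeated: the 31-mers of its central 200 bp had a median of 354.5 copies in the genome, and 759 of its 855 31-mers (88.8%) occurred more than once.

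That farther peak was the only 1 of the 7 whose centre was multi-copy, defined as a median of at least 2 copies. With words of 75 bases in place of 31, the median of its centre was 2 copies, just at that limit. In the whole list, 46.5% of peaks were multi-copy, with 2.62% among the peaks within 1 kb of their TSS and 90.2% among those beyond 100 kb. The Meis1 promoter peak and the nearer distal peak had a median of 1 copy. The part of repeated sequence in the calling of the distal Meis1 peaks was not tested. Assignment to Meis1 also rests on the gene set used: by the closest protein-coding TSS of the GENCODE annotation, both distal peaks went to Gm16140, a predicted gene inside the Meis1 locus whose TSS was 136953 and 229433 bp away. No other peak lay within 500 kb of the Meis1 TSS.

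**Figure D1:**
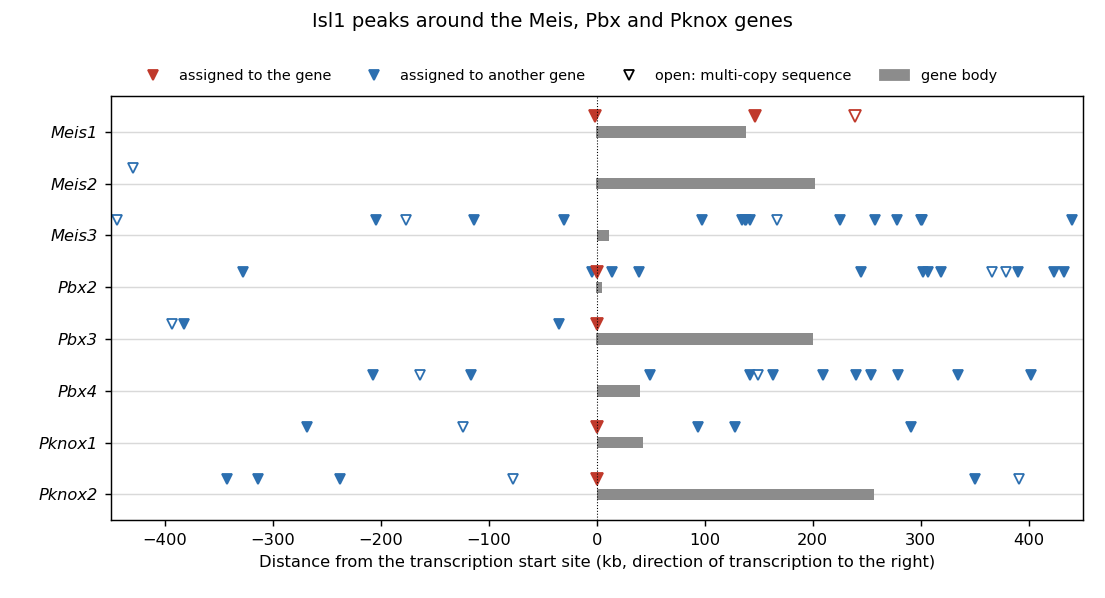
Isl1 peaks (triangles) around the 8 genes, plotted by distance of the peak midpoint from the TSS in kb, with transcription to the right. Grey bars are gene bodies, red triangles are peaks assigned to the gene, blue triangles peaks assigned to other genes, and open triangles multi-copy peaks; Meis1 has 3 red triangles, 4 genes have 1 at the TSS, and Meis2 has a single open blue triangle more than 400 kb upstream.

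Meis2, which is known for roles in the cranial and cardiac neural crest, and Meis3, known best from the hindbrain, had no assigned peak, but their surroundings were unlike. Meis2 spans 202776 bp (chr2:115688800-115891575, minus strand), and no peak of any gene lay in it or within 100 kb. The closest peak was 427988 bp away, was assigned to Tmco5 and was multi-copy, with a median of 2916 copies. Of 22359 annotated protein-coding genes, 369 had a gap to the nearest peak at least that long, the median gap was 19712 bp, and 32.1% of genes were overlapped by a peak. Meis3 is a short gene (chr7:16760729-16771853, plus strand) among other genes. It had 2 peaks within 100 kb, which were assigned to Slc8a2 and Inafm1, and the nearer, chr7:16730324-16730980, was 29749 bp from the gene.

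Pbx2 and Pbx3 encode partners of both Meis and Hox proteins. Pbx2 is expressed in many tissues and Pbx3 has known roles in the nervous system, and each had 1 peak across its TSS. The Pbx3 peak, chr2:34226461-34228607, was the widest of the 7 at 2146 bp, at percentile 98 of all widths. It extended almost evenly to both sides of the TSS, from -1051 to +1095 bp, over 1051 bp upstream, 116 bp of UTR, 200 bp of coding sequence and 780 bp of intron. The Pbx2 peak, chr17:34728927-34729781, was 854 bp wide, at percentile 40.2, and ran from -281 to +573 bp over 281 bp upstream, 291 bp of UTR, 221 bp of coding sequence and 62 bp of intron. The deposited distances of the midpoints were +31 bp for Pbx3 and -62 bp for Pbx2. By the GENCODE annotation, however, the Pbx2 midpoint lay 146 bp downstream of the nearest Pbx2 TSS. Pbx2 lies in a gene-dense stretch: the next peak, assigned to Gpsm3, began 3913 bp away, and 4 peaks lay within 100 kb of the gene.

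Pbx4, which is known for its expression in testis, had no assigned peak. A wide peak of single-copy sequence, chr8:72404543-72407555, 3012 bp across, began 7481 bp past its 3′ end, and the list assigned it to Cilp2. From the Pbx4 TSS the midpoint of that peak was 49479 bp away. Counted by any peak within 100 kb of the gene body, whichever gene the peak was assigned to, 7 of the 8 genes had at least 1, beside 80.5% of annotated protein-coding genes, and Meis2 was the exception.

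Pknox1, also called Prep1, and Pknox2, also called Prep2, encode the Pknox partners of Pbx, the first needed broadly in the embryo and the second more restricted in its expression. Both had 1 peak that spanned the TSS and extended mostly into the gene. The Pknox1 peak, chr17:31701108-31702665, was 1557 bp wide (percentile 89.0) and ran from -610 to +947 bp over 610 bp upstream, 116 bp of UTR and 832 bp of intron. Its midpoint, at +168 bp, was in an intron of the gene, and the nearest annotated TSS of any gene was that of AC166172.1, 102 bp away. The Pknox2 peak, chr9:36953813-36955175, was 1362 bp wide (percentile 81.9) and ran from -276 to +1086 bp, with 1013 bp in the intron, 74 bp of UTR and 276 bp upstream. Its midpoint lay at a deposited distance of +413 bp. Neither gene had a second peak, although the Pknox2 gene body extends over 256330 bp.

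**Figure D2:**
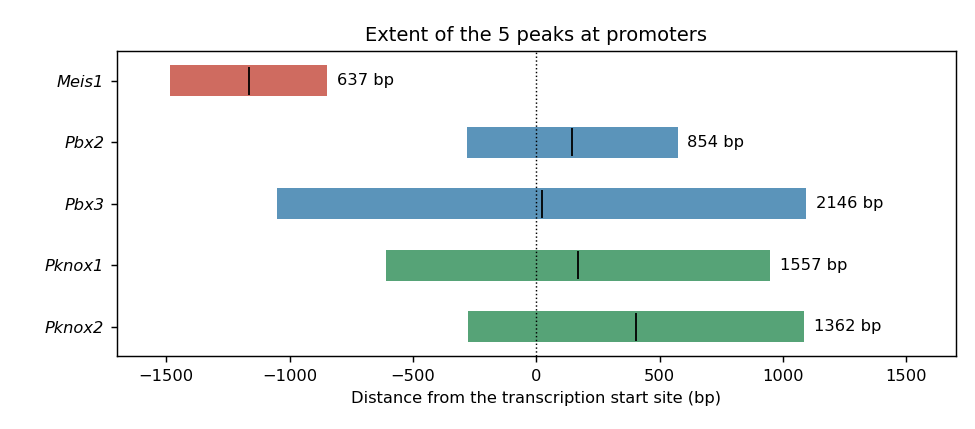
Extent of the promoter peaks (bars, with the width in bp) along the distance in bp from the TSS of the transcript with the longest coding sequence, with a vertical tick at the peak midpoint. The bars of Pbx2, Pbx3, Pknox1 and Pknox2 cover the TSS at 0, while the Meis1 bar ends at -847 bp.

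At the level of position, 4 of the 5 promoter peaks covered the TSS and the Meis1 peak stood upstream of it. By the sign of the deposited distance, 3 of the 5 midpoints (Pbx3, Pknox1 and Pknox2) were at or downstream of the TSS, beside 81.0% of the 5416 peaks within 1 kb in the list. From the GENCODE TSS used for the extents, the Pbx2 midpoint was downstream too, at +146 bp.

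The widths of the 7 peaks ranged from 323 to 2146 bp with a median of 884 bp, beside a median of 947 bp over all peaks (interquartile range 717 to 1243 bp). Among the 5 promoter peaks the median was 1362 bp, beside 1050 bp for all peaks within 1 kb of a TSS (interquartile range 835 to 1313 bp). They fell on both sides of that range. Among peaks within 1 kb, Pbx3 was at percentile 97.8, Pknox1 at 86.8, Pknox2 at 78.2, Pbx2 at 27.5 and Meis1 at 6.22. The list gives no read numbers to set beside these widths.

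**Figure D3:**
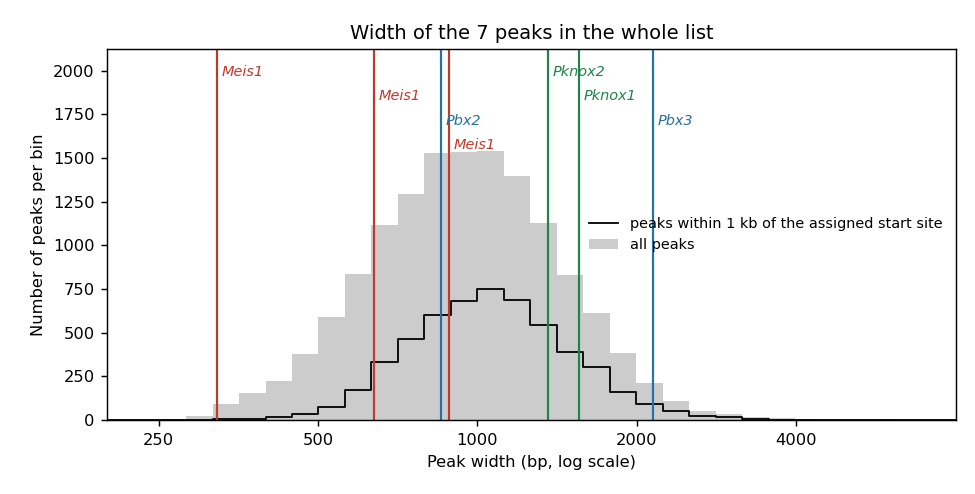
Width of all peaks (grey bars) and of peaks within 1 kb of a TSS (black line) as the number of peaks per bin against width in bp on a log scale, with a coloured line for each of the 7 peaks. The Meis1 peaks and the Pbx2 peak are at 884 bp or less, left of the median of 947 bp, and those of Pknox2, Pknox1 and Pbx3 are at 1362 bp or more.

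Base composition varied with position. In the central 200 bp, GC content was 69.0% at the Meis1 promoter peak, 74.0% at Pknox1, 75% at Pbx2, 78.5% at Pknox2 and 85% at Pbx3, and the last was at percentile 99.4 of all peaks. The median of these 5 was 75%, beside the 74.0% of all peaks within 1 kb of a TSS. The distal Meis1 centres had 65.5% and 44.5%, beside a median of 63.5% for peaks beyond 100 kb. The ratio of observed to expected CpG, which is high in CpG islands, was 1.15 at Pbx3, 1.08 at Pknox1, 1.01 at the Meis1 promoter peak, 0.980 at Pknox2 and 0.649 at Pbx2, beside a median of 0.930 for peaks within 1 kb. It was 0.514 at the farther distal Meis1 peak, near the median of 0.572 for peaks beyond 100 kb, and 0 at the nearer.

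**Figure D4:**
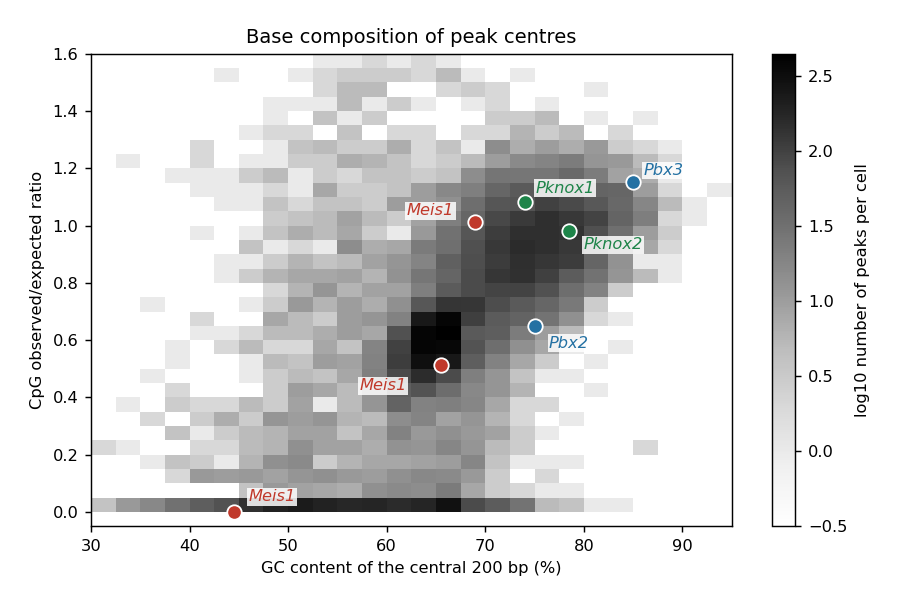
GC content in percent of the central 200 bp against the observed to expected CpG ratio, with grey cells for the log10 number of peaks in the list and coloured points for the 7 peaks. The promoter peaks of Meis1, Pknox1, Pknox2 and Pbx3 lie in the cloud at high CpG ratio (0.980 to 1.15), Pbx2 lies below it at 0.649, and the distal Meis1 peaks lie at 0.514 and 0.

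Promoter composition differed widely among the 8 genes. GC content within 500 bp of the TSS was 75.9% for Pbx3, 74.3% for Pknox1 and 70.4% for Pbx2, all in the top decile of protein-coding genes, and 64.2% for Pknox2 in decile 9. It was 62.6% for Meis3 (decile 8), 58.1% for Pbx4 (decile 7), 49.4% for Meis1 (decile 4) and 46.3% for Meis2 (decile 3). Of 22359 annotated protein-coding genes, 24.9% had a peak that overlapped the 1 kb on either side of the TSS, as 5 of the 8 genes did. This share was higher in each successive decile of GC content, and it went from 0.314% in decile 1 to 89.2% in decile 10. It was 63.1% in decile 9, 43.5% in decile 8, 23.2% in decile 7, 4.68% in decile 4 and 2.38% in decile 3. By this measure the peaks at Pbx2, Pbx3, Pknox1 and Pknox2 were in deciles where most genes had one. The Meis1 promoter peak was in a decile where 107 of 2286 genes had one, and Meis2 was in a decile where 52 of 2183 did. These deciles depend on which TSS is used. At the start of the annotated gene instead, an alternative chosen after seeing the data, GC content was 56.2% for Meis2 (decile 6), 56.1% for Pbx2 (decile 6) and 59.7% for Pbx3 (decile 8), with shares of 12.7% in decile 6 and 41.8% in decile 8, while Meis1 stayed in decile 4 with 50.1% and a share of 5.03%. The Meis2 window shown above, just upstream of the annotated gene, had 71.5% GC, and the Meis1 promoter peak lay outside the scored 500 bp.

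**Figure D5:**
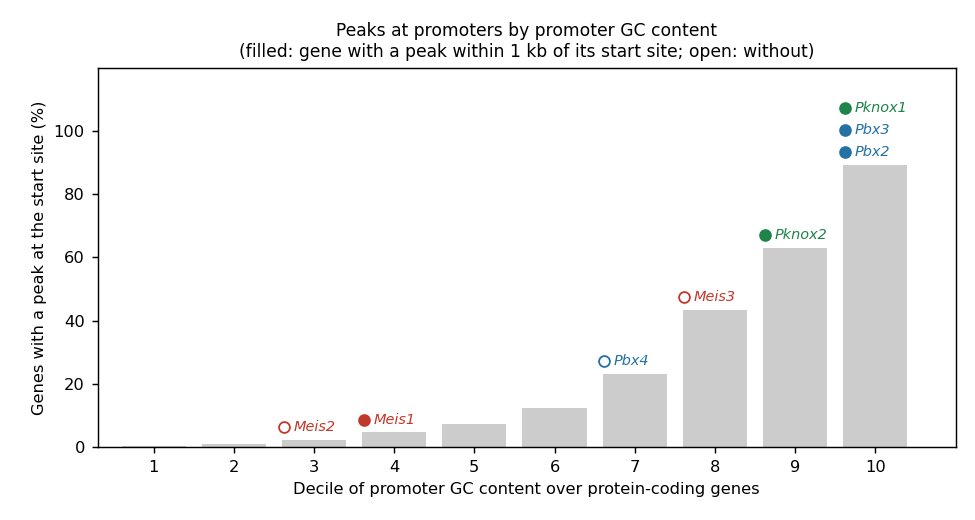
Percentage of protein-coding genes with a peak overlapping the 1 kb on either side of the TSS (bars), by decile of GC content within 500 bp of the TSS, with the 8 genes marked above the bar of their decile (filled, with such a peak; open, without). Pbx2, Pbx3 and Pknox1 stand over decile 10 at 89.2%, and Meis1 is the filled point farthest to the left, over decile 4 at 4.68%; with the start of the annotated gene as the TSS, Pbx2 and Pbx3 fall in deciles 6 and 8.

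Closest-gene assignment also depends on the territory of a gene, which is the stretch nearer to its TSS than to that of any other protein-coding gene. Territories measured 648 kb for Meis2, 458 kb for Meis1, 260 kb for Pbx3, 188 kb for Pknox2, 58.5 kb for Pknox1, 45.9 kb for Meis3, 32.6 kb for Pbx4 and 4.03 kb for Pbx2. In the top decile of territory, which holds Meis1, Meis2 and Pbx3, 64.9% of genes had an assigned peak, and in the lowest, which holds Pbx2, 16.8% did. Meis2 had the largest territory of the 8 and no peak, while Pbx2 had the smallest and 1. The Meis1 territory is bounded downstream by Gm16140, so the distal Meis1 peaks lay outside it, and of the 3 Meis1 peaks the promoter peak was the one within it.

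Of the strings sought in the central 200 bp, the GC box was the most frequent at the 7 peaks. GGGCGG was in 5 of the 7 centres, those of Pbx3, Pknox1, Pbx2, the Meis1 promoter peak and the farther distal Meis1 peak, beside 42% of all centres and 65.7% of centres within 1 kb of a TSS. In flanking windows of 200 bp, centred 2 kb from the midpoint on each side, 3.32% and 3.03% of all peaks and 0 of the 7 held it. Over the whole peak, GGGCGG was in 6 of the 7, beside 64.3% of all peaks and 96.3% of those within 1 kb of a TSS. It occurred 19 times at Pbx3, 19 times at Pknox1, 5 times at Pbx2 and 5 times at Pknox2. At Meis1 it occurred 1 time in the promoter peak, 2 times in the farther distal peak and 0 times in the nearer. In the 200 bp upstream of the TSS it occurred 10 times at Pknox1, 3 times at Pbx3, 2 times at Pbx2, once at Pknox2 and 0 times at Meis1, Meis2, Meis3 and Pbx4. It was in that stretch of 69.6% of the genes with a peak at the TSS and of 29.3% of those without.

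The LIM-homeodomain strings CTAATTG and CTAATGG were in 0 of the 7 centres, beside 0.192% and 0.220% of all centres. In the flanking windows of all peaks, CTAATTG was in 1.43% and 1.34% and CTAATGG in 1.43% on each side. Over the whole width they were in 0 of the 7 peaks, beside 2.23% and 2.85% of all peaks. TAAT was in 1 centre of the 7, that of the nearer distal Meis1 peak, beside 19.4% of all centres, 5.87% of those within 1 kb and 72% and 72.3% of the flanking windows. The same Meis1 centre was the one that held the GATA string GATAA, which was in 3.39% of all centres and in 30.2% and 30.4% of flanking windows. The absence of a string says only that these letters are not in this window.

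Of the strings that TALE proteins themselves recognise, TGACAG, a site of Meis and Pknox proteins, was in 1 of the 7 centres, that of Pknox1, beside 14.9% of all centres, 6.54% of those within 1 kb and 12.5% and 12.3% of flanking windows. The joint Pbx and Hox string TGATTGAT was in the same Pknox1 centre and in 9 of the 14082 centres in all (0.0639%). It was more frequent outside the centres, in 0.554% and 0.490% of flanking windows and in 0.394% of the stretches of 200 bp upstream of all TSSs. The others were assigned to Aktip, Gabbr2, Hk2, Irx5, Lhx2, Mir5119, Oog3 and Smug1. A longer string in which a Pbx and a Meis site abut was in 0 of the 7 centres, beside 0.0213% of all centres and 0.0852% and 0.114% of flanking windows.

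Among the other TALE genes, 8 of 9 had an assigned peak, beside 37.5% of protein-coding genes. At 5 of them a peak was no farther than 1 kb from the TSS, beside 23.2%. The Irx genes, which take part in patterning of the heart and its conduction system, held 15 of the 17 peaks: Irx1, Irx2, Irx5 and Irx6 had 3 each, Irx3 had 2 and Irx4 had 1. Tgif1 and Tgif2, repressors in TGF-beta and retinoid signalling, had 1 each, at 43253 bp and at 529 bp from the TSS, and Mkx, a factor of tendon development, had none. Without multi-copy peaks, 5 of the 9 genes and 5 of the 8 Meis, Pbx and Pknox genes had a peak, beside 27.6% of protein-coding genes. All peaks of Irx3, Irx6 and Tgif1 were multi-copy.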

How the data were processed

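Isl1 ChIP-Seq of ESC-derived CPCs at day 5 was analysed from 1 deposited peak list, in which the authors had combined 2 Isl1 pulldowns called against 1 input. Per the labels and methods, the authors aligned reads to mm9 with bowtie2, removed duplicates with Picard 1.136, called peaks with MACS without a model, dropped blacklisted regions, intersected both replicates with bedtools 2.15 and annotated peaks with HOMER by closest TSS. Columns hold coordinates, signed distance in bp, a RefSeq accession and a symbol, with no score, count or depth. Whether starts count from 0 or 1 is not stated, so positions are uncertain by 1 bp.

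Of 14165 lines, 83 repeats were dropped, none of them at the genes described. Features came from GENCODE on the same assembly (NCBI m37). The TSS of a gene was that of the coding transcript with the longest coding sequence. Of the symbols, those of protein-coding genes (21896) were taken from a RefSeq table of a later build, without its coordinates. Copy number was the number of occurrences on both strands of each 31-mer, with the counting tested on simulated sequence. Strings were sought on both strands. Promoter windows were 500 bp to either side of the TSS. Python 3.11.15, numpy 2.4.6 and pandas 2.3.3 were used.

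No test was made because a single list has no replicate error, and the values over all peaks or genes stand beside those of the 8 genes. All 8 genes were named, together with the genes of each list and those nearest to a peak. The genes, lists and measures were chosen with earlier results of these data known. Some planned items are not reported here. Alternatives concerned repeated lines, width, merging, gene assignment, copy number, distance and window size.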

Additional observations from a re-analysis of the deposited data

How the results depend on the processing

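Of 72 alternative values over 24 results, 49 stayed and 23 did not. A value stayed if it equalled the reported one. For counts, medians and the share of protein-coding genes with a peak, a value within 1.5 times of it also stayed. The number of genes with a peak (5) and of promoter peaks (5) stayed within that bound under each alternative tried for them. Some of these alternatives could not change either number. No line at these genes was repeated, and no other peak lay within 1000 bp of theirs to be merged. None of the 7 peaks lay between 1 and 10 kb from its TSS. The number of genes became 7 when any peak within 100 kb counted, a criterion met by 80.5% of annotated protein-coding genes. The number of peaks was 6 with a width of at least 500 bp or without multi-copy peaks, and 5 by the closest protein-coding TSS, which left none of the distal Meis1 peaks.

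The median width was 1362 bp for promoter peaks alone. The share of protein-coding genes with a peak was 10.6% for at least 2 peaks and 23.2% for peaks within 1 kb, and 5 other TALE genes had a peak within 1 kb and 5 a single-copy one. TAAT was in 0 of the 7 central windows of 100 bp (9.59% over all peaks), in 5 whole peaks (74.0% over all) and in 3 and 4 windows 2 kb to either side (72% and 72.3%). For GATAA the counts were 0 (1.63%), 4 (35.3%), and 3 and 2 (30.2% and 30.4%). TGACAG was in 5 whole peaks (42.5%) and in 3 and 0 flanks (12.5% and 12.3%). TGATTGAT was in 0 and 0 flanks (0.554% and 0.490%), and GGGCGG in 0 and 0 (3.32% and 3.03%). Longer windows hold more matches by construction. With promoters placed at the start of the annotated gene, an alternative chosen after seeing the data, the GC decile became 6 for Meis2, 6 for Pbx2 and 8 for Pbx3, and stayed at the reported value for the other 5 genes.

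No paired analysis was possible because the list combines both replicates, and for the same reason no replicate was left out in turn. Depth is unknown, so the absence of an assigned peak at Meis2, Meis3 and Pbx4 has no detection limit. Protein sequences were not used here.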
